A study of Mus musculus with 6 samples.

Results

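AICAR was compared directly with adenine in undifferentiated 3T3-L1 cells, mouse embryo fibroblasts that can be driven to become fat cells. It rests on 2 of the series' 6 arrays, taken by their titles: the undifferentiated culture given AICAR and the undifferentiated culture given adenine. Both cultures had 0.5 mM of their compound for 3 days in medium with 10% calf serum. The protocol speaks of cotreatment without naming a further agent, and each culture was taken to have had only the compound in its own label. A further fibroblast array came from untreated cells. The other 3 arrays came from cells induced to adipocytes with IBMX, insulin and dexamethasone in 10% fetal bovine serum, either untreated or with the same dose of adenine or AICAR in the 3 days of induction only, followed by 3 days in insulin medium. The labels name no genetic change in any group, and they do not say how cultures were pooled or whether they ran side by side. Each condition is 1 array, so no difference here has a replicate check, no test between conditions is possible, and the number of arrays limits every value. All differences are log2 signal with AICAR minus log2 signal with adenine unless another pair is named, so that 1 is a 2-fold difference.

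Adenine and AICAR are related purine compounds that reach the same nucleotide pool by different enzymes. Adenine is the bare base, without a sugar, and adenine phosphoribosyltransferase (Aprt) joins it to ribose phosphate to give AMP. AICAR is a riboside whose base is an imidazole ring, and adenosine kinase (Adk) turns it into ZMP, an intermediate of purine synthesis that mimics AMP and can switch on the AMP-activated protein kinase (AMPK). AMPK is a sensor of low energy that is known to favour glucose uptake, glycolysis and fatty acid oxidation and to restrain lipid synthesis and growth. ZMP also has targets apart from AMPK.

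The array table held 19938 genes with a single symbol, and 9969 of them were used because their mean over the 6 arrays reached 5.87, the median of such means. Hs3st4 and Spdef, with means of 5.87, lay just inside this filter and had differences of 0.25 and 0.34. Ankrd1 and Gbx2, also at 5.87, lay just outside it with differences of -0.08 and 0.13. The medians of all probe sets were 5.42 in control, 5.43 in adenine and 5.45 in AICAR fibroblasts. The matrix gene Col1a1 stood at 11.90, 12.05 and 11.18 in control, adenine and AICAR fibroblasts. Such genes do not by themselves set the fibroblasts apart, since Col3a1 was at 11.67 in untreated fibroblasts and 11.55 in untreated adipocytes. Adiponectin (Adipoq), which marks fat cells, stood at 4.42, 4.45 and 4.05 in control, adenine and AICAR fibroblasts, under the filter level. In untreated adipocytes it was at 10.64, so its low level goes with the fibroblast label. Of 13 fibroblast markers 12 were used, 10 of them below 0 and 2 at least 2-fold lower with AICAR, and the summed log2 level of the 13 was 144.0, 146.5 and 136.0. Of the other cell type lists, 0 of 8 endothelial and 0 of 8 epithelial markers on the array passed the filter, with highest levels of 5.71 and 6.08 in AICAR fibroblasts. Muscle markers passed in 4 of 8 cases and bone and cartilage markers in 3 of 6. Their summed log2 levels were 44.8 and 35.3 with adenine and 45.4 and 35.5 with AICAR. Among leukocyte markers 2 of 9 passed: Cd68, a lysosomal protein of macrophages, had 5.95, 5.85 and 7.44 in control, adenine and AICAR fibroblasts, and the lysozyme gene Lyz2 had 7.99, 8.12 and 7.10. The leukocyte antigen Ptprc stood at 4.24, 3.86 and 4.21 and the macrophage marker Adgre1 at 3.58, 3.65 and 3.78, all under the filter level. The summed levels of the 9 leukocyte markers were 43.2, 43.6 and 45.7, those of the endothelial markers 36.1, 36.3 and 38.0, and those of the epithelial markers 41.1, 40.8 and 41.6, and their part in the results was not tested. Of 9 reference genes 1 differed 2-fold (Pgk1, a glycolytic enzyme), and the median of the 9 was -0.16.

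AICAR and adenine fibroblasts differed at many genes, and more of the large differences were toward lower signal with AICAR. At least 2-fold differences were found for 159 genes that were higher with AICAR (1.59% of those used) and 388 that were lower (3.89%), 5.49% in all. At least 4-fold differences were found for 9 higher and 35 lower genes. Of the 9969 genes used 4871 were above 0 and 5098 (51.1%) below it. These shares are the background for the counts given for each gene list. The middle of the distribution was nearly centred, with a median of -0.01, quartiles of -0.32 and 0.24, and a robust SD of 0.41. For comparison, adenine and untreated fibroblasts differed with a robust SD of 0.156 and had 8 genes past 2-fold toward higher (0.0802%) and 5 toward lower signal with adenine (0.0502%), 0.13% in all.

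**Figure D1:**
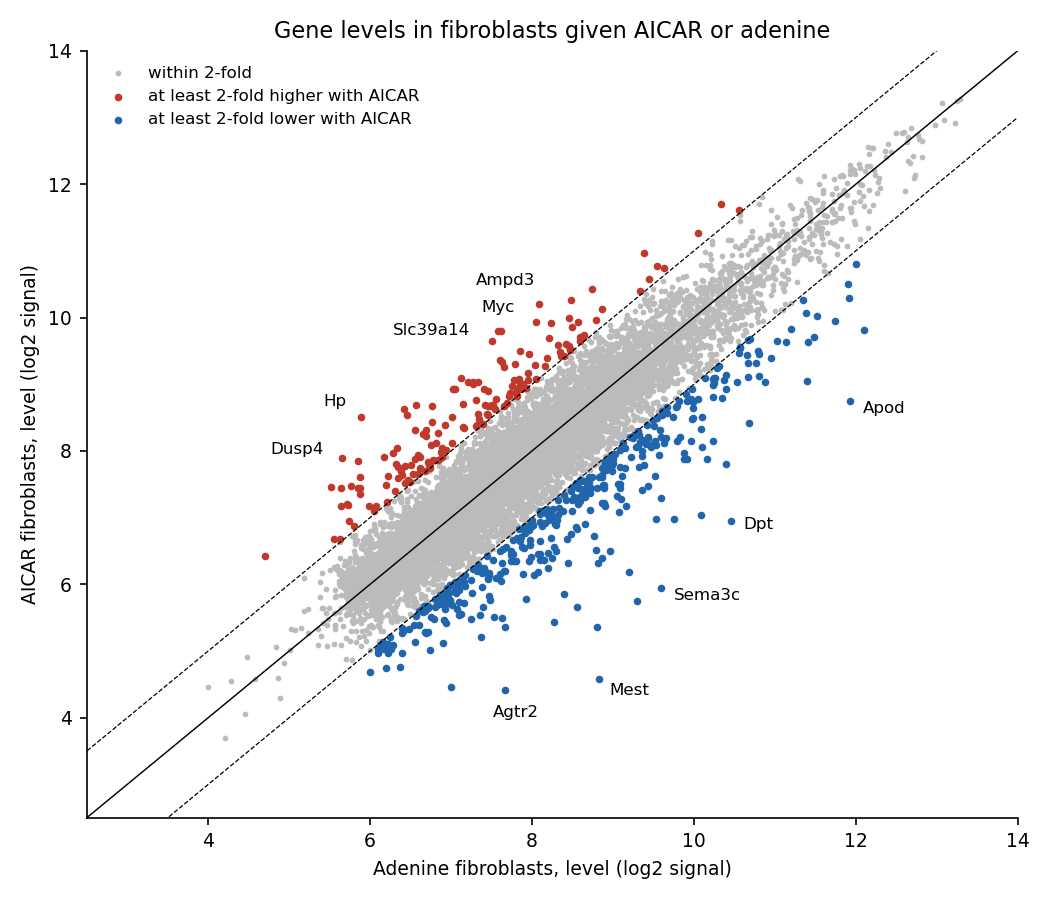
Level of each of the 9969 genes used (log2 signal) in adenine fibroblasts on the x axis and in AICAR fibroblasts on the y axis, 1 array each; the solid line marks equal levels and the dashed lines a 2-fold difference. The 388 blue points below the lines reach farther from equality than the 159 red points above them, with Mest at -4.24 and haptoglobin (Hp) at 2.63 as the extremes.

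Most of these genes were set apart by the AICAR array. Of the 159 higher genes AICAR was farther from the untreated fibroblasts than adenine was in 157, and of the 388 lower genes in 381. AICAR was also at least 2-fold above the control for 116 of the 159 (1.7% of the genes used were so) and at least 2-fold below it for 281 of the 388 (3.69% were so, and 5.39% in either direction). The untreated level lay between those of the treated cultures for 96 of the higher and 256 of the lower genes. Ccl5, a chemokine, was the only one of the higher genes with adenine at least 2-fold below control. Picking genes by the difference between the treated cultures by itself favours a control level between them. Over all genes used, the robust SD against untreated fibroblasts was 0.41 with AICAR and 0.156 with adenine. These sets share the AICAR or the adenine array, so they describe where the control stands and add no independent evidence.

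The genes highest with AICAR relative to adenine were an acute-phase protein, a MAP kinase phosphatase, a growth-promoting transcription factor and a fatty acid carrier. Haptoglobin (Hp, chromosome 8, 109575128 to 109579172, mm10), which binds free haemoglobin, had levels of 5.49 in control, 5.88 in adenine and 8.51 in AICAR fibroblasts, a 6.2-fold difference between the compounds (2.63). Dusp4 (chromosome 8, 34807610 to 34819894), a nuclear phosphatase that switches off ERK, had 6.04, 5.65 and 7.89 in the same order (2.25). Myc (chromosome 15, 61985341 to 61990361), which drives ribosome production and growth, had 8.06, 7.58 and 9.80 (2.23). For Dusp4 and Myc the adenine culture was below the control and AICAR above it, while for Hp both treated cultures were above it. Fabp4, a fatty acid carrier that adipocytes make in bulk, had 6.97, 6.42 and 8.62 (2.20). The zinc and iron transporter Slc39a14 had 7.57, 7.62 and 9.80 (2.18), and Ccl5 had 8.72, 7.51 and 9.65 (2.14). Thus the control sat with adenine for Slc39a14 and nearer to AICAR for Ccl5. The AMP deaminase Ampd3 stood at 2.13, the aryl hydrocarbon receptor Ahr at 2.12, the cyclic nucleotide phosphodiesterase Pde1b at 2.09 and Pfkfb3, whose product stimulates glycolysis, at 2.0. Next came the antiviral gene Rsad2 (1.97), the lubricin gene Prg4 (1.94), the microtubule kinase Mark1 (1.90), the survival kinase Pim1 (1.90) and the mitophagy gene Bnip3 (1.89). Of these 15 genes 3 had an adenine level under the filter level of 5.87, where a fold depends on the background correction.

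The genes lowest with AICAR were an imprinted gene, a guidance cue and several matrix and stromal genes, with larger differences than those in the other direction. Mest (chromosome 6, 30733506 to 30748466), an imprinted gene linked to fat cell size, had 7.96 in control, 8.83 in adenine and 4.58 in AICAR fibroblasts, an 18.9-fold difference (-4.24). The secreted guidance factor Sema3c had 9.61, 9.59 and 5.95 (-3.64), and Arhgap20 had 9.36, 9.30 and 5.75 (-3.55). Dermatopontin (Dpt, chromosome 1, 164796663 to 164824274), which organises collagen fibrils, had 9.83, 10.46 and 6.95, an 11.4-fold difference (-3.51). Sema3c and Arhgap20 were alike in control and adenine cultures, whereas Mest and Dpt were highest with adenine. The microfibril gene Mfap5 had 8.40, 8.80 and 5.35 (-3.44), the angiotensin receptor Agtr2 had 6.89, 7.67 and 4.42 (-3.25) and apolipoprotein D (Apod) had 11.69, 11.93 and 8.75 (-3.18). In all of these the AICAR culture stood alone at the bottom. Fhl2, a LIM-domain cofactor, followed at -3.05, extracellular superoxide dismutase (Sod3) at -3.02, the sorting receptor Sort1 at -2.84, the interferon-induced Ifi27l2a at -2.78, S100a4 at -2.60, the stromal surface protein Cd248 at -2.55 and Mfap4 at -2.54. P2rx3, an ATP-gated channel, was at -2.90, but its other probe set was at 0.10, so its value rests on the brighter of the pair. AICAR levels were under 5.87 for 7 of the 15, including Mest. In bulk RNA of this kind, a smaller share of cells that make a transcript and less of it per cell cannot be told apart.

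**Figure D2:**
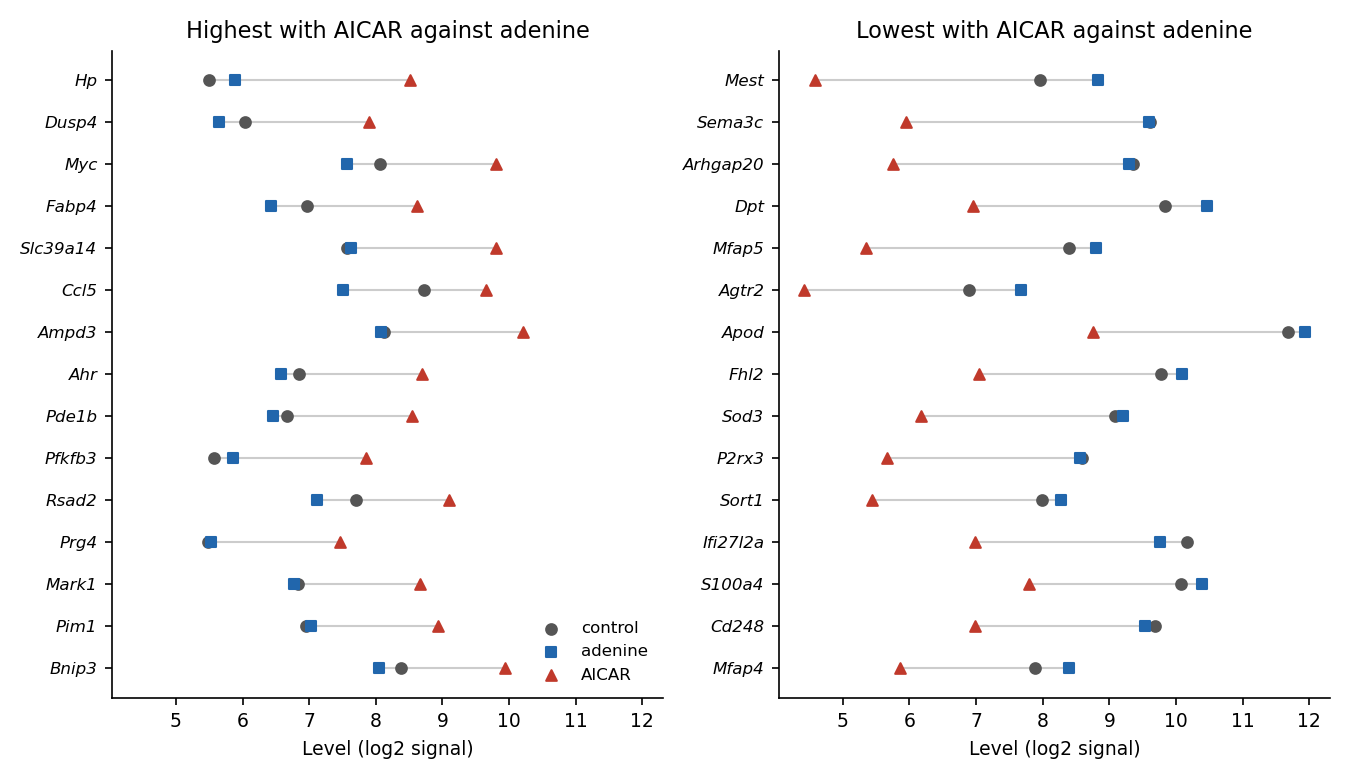
Levels (log2 signal, x axis) in control, adenine and AICAR fibroblasts, 1 array each, for the 15 genes highest (left) and 15 lowest (right) with AICAR against adenine. The AICAR triangle stands apart from the other symbols in nearly every line, and the control lies clearly between the treated cultures for Ccl5 (7.51, 8.72 and 9.65 in adenine, control and AICAR).

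The enzymes that handle the compounds themselves were mostly alike in both cultures, with a few large exceptions. Aprt, which uses adenine, had 8.24, 7.98 and 8.17 in control, adenine and AICAR fibroblasts (0.19). Adk, which uses AICAR, had 8.42, 8.54 and 7.52 (-1.02), lowest in the culture that received its substrate. Hprt, the salvage enzyme for hypoxanthine and guanine, stood at 0.30. Of 25 purine salvage and breakdown genes listed, 23 were on the array and 18 used. In that list 3 were at least 2-fold higher, 1 at least 2-fold lower, and the median was 0.09 beside -0.01 over all genes used. Ampd3, which deaminates AMP to IMP, had 8.13, 8.08 and 10.21. Guanine deaminase (Gda) had 5.78, 5.64 and 7.45 (1.80), and the mitochondrial adenylate kinase Ak4 had 6.4, 5.88 and 7.44 (1.57), or 1.06 as the mean of its probe sets. The cytosolic adenylate kinase Ak1 went the other way (-0.95). Among 9 used genes of purine synthesis from scratch, 0 differed 2-fold, and Atic, which acts on ZMP, was at 0.39. Of 26 receptor, ectonucleotidase and nucleoside transporter genes on the array, 8 were used, with P2rx4, an ATP-gated channel, at -1.99 (9.57, 9.87 and 7.88), Slc43a3, which carries nucleobases, at 1.13 and the nucleoside transporter Slc29a1 at -0.37. The median of those 8 was -0.56, and over all 26 it was 0.04.

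AMPK itself differed little at the level of its transcripts. Of 10 used genes for its subunits and upstream kinases, 0 differed 2-fold, with a median of -0.06, the catalytic subunit Prkaa1 at -0.12, the regulatory subunit Prkab2 at 0.46 and the upstream kinase Map3k7 at -0.73. Genes tied to AMPK's metabolic actions were more spread, with 2 of 19 higher and 3 lower. Ppargc1a, the coactivator of mitochondrial biogenesis, had 7.96, 8.29 and 6.50 in control, adenine and AICAR fibroblasts (-1.79). The leucine sensor Sesn2 (-1.71) and its relative Sesn3 (-1.81) were also lower, while the transcription factor Foxo3 (1.03) and Pfkfb3 were higher. Transcript levels say nothing of the kinase's activity, which was not measured.

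The brighter acute-phase and inflammatory secreted proteins were higher with AICAR. Of 33 genes listed, 30 were on the array and 13 used, with a median of 1.25. Among the 13, 8 were at least 2-fold higher and 0 lower, beside 1.59% and 3.89% of all genes used. Serpina3n, a protease inhibitor, had 6.32, 6.66 and 8.26 in control, adenine and AICAR fibroblasts (1.60), the orosomucoid gene Orm2 was at 1.49, the iron-siderophore binder Lcn2 at 1.28, the pattern recognition protein Ptx3 at 1.26, the prostaglandin synthase Ptgs2 at 1.25 and the copper carrier ceruloplasmin (Cp) at 1.05. Prostaglandin E synthase (Ptges) was at -0.60. The 17 unused members were dim, and over all 30 the median was 0.22 beside 0.08 for every gene without the filter, lower than the unfiltered medians of the glycolysis (0.69) and cytokine feedback (0.58) lists. Interleukin 6 (Il6), one of those removed by the filter and named here after its values were seen, had 3.55, 3.77 and 6.66 (2.89). The cytokine signalling and feedback genes were higher more often than not, with 21 of 26 above 0, 3 past 2-fold and a median of 0.61. They included the oncostatin M receptor Osmr (1.24), the transcription factor Cebpd (1.32), the NF-kB cofactor Bcl3 (1.07) and Stat3 (0.76), against Socs2 at -1.46. Of 12 used chemokine genes 2 were higher, Ccl5 and Cxcl1 (7.22, 7.45 and 8.89, 1.44), and Ccl11, which draws eosinophils, was lower (-1.19).
Among interferon-stimulated genes 18 of 25 were above 0, beside 4871 of all 9969 genes used. The median was 0.35, but 0.005 with the filter raised to the 75th percentile. Against the control the medians of these genes were 0.11 with AICAR and -0.17 with adenine, so the adenine array lay farther from the control. Few differences were large: Rsad2 and Ifit2 (1.82) were at least 2-fold higher and Ifi27l2a was lower. In the antigen presentation list 1 of 17 used genes differed 2-fold, the MHC class II chaperone Cd74 (8.90, 6.99 and 4.46, -2.54), which was highest in untreated cells.

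Members of the MAP kinase feedback list lay on either side of 0, with a median of 0.13. Among 19 used genes 0 were at least 2-fold lower with AICAR and 4 higher, beside 3.89% and 1.59% of all genes used. The 4 were phosphatases, of 9 used: Dusp4, Dusp16 (6.25, 6.17 and 7.92, 1.74), Dusp1 (8.42, 7.96 and 9.45, 1.5) and Dusp10 (6.63, 6.76 and 8.09, 1.33). The other phosphatases ran from -0.13 for Dusp14 to 0.61 for Dusp7. Dusp16 and Dusp10 act mainly on JNK and p38, and Dusp1 on all of the MAP kinases. Among inhibitors of receptor signalling, Spry2 was at -0.54, Spry3 at -0.50, Spry4 at -0.31 and Spry1 at -0.08, while Errfi1 was at 0.99, Spred2 at 0.82 and Spred1 at 0.71. Immediate-early factors had a median of 0.30, with Atf3 (6.35, 5.77 and 7.47) at 1.71, Klf10 at 1.21 and Fosl2 at 1.12, while Egr1 was at -0.83 and the ERK-responsive Etv1 at -1.03. Against the control the medians of these factors were 0.01 with AICAR and -0.24 with adenine, so the adenine array lay farther from the control.

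Myc stood out within its network, and genes for making ribosomes were slightly higher as a body. Of 12 used genes of the Myc network and Pim kinases, Myc and Pim1 (6.96, 7.03 and 8.93) were at least 2-fold higher and the Myc antagonist Mxd4 was lower (-1.21), while the partner Max was at -0.16. Ribosome biogenesis and nucleolar genes were above 0 in 32 of 33 cases, with a median of 0.38 and 0 members at a 2-fold difference. The nucleolar GTPase Gnl3 (1.00), just short of 2-fold, Utp4 (0.91) and Nop14 (0.90), both of the small-subunit processome, were highest, and Bop1 (-0.11) was the exception. Ribosomal protein genes were above 0 in 18 of 19 cases with a median of 0.27. Against the control their medians were 0.09 with AICAR and -0.22 with adenine, so the adenine array lay farther from the control here. The list was led by Rps19 (0.60) and Rps14 (0.59).

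Glycolytic and hypoxia-responsive genes were higher with AICAR. Of 36 listed, 32 were on the array and 28 used, with 22 above 0, 6 at least 2-fold higher, 1 lower and a median of 0.72. Over all 9969 genes used 4871 were above 0 and 1.59% at least 2-fold higher. Pfkfb3 had 5.58, 5.85 and 7.85 in control, adenine and AICAR fibroblasts. Hexokinase 2 (Hk2), which traps glucose in the cell, had 7.48, 7.63 and 9.33 (1.70), and Bnip3 had 8.38, 8.05 and 9.94. Phosphoglycerate kinase (Pgk1) had 10.77, 10.34 and 11.70 (1.36), the enolase Eno2 was at 1.28 and the liver-type phosphofructokinase Pfkl at 1.11. For Hk2 and Pfkfb3 adenine was slightly above control, and for Pgk1 and Bnip3 slightly below it. The collagen prolyl hydroxylase P4ha1 (-1.37) and the muscle-type phosphofructokinase Pfkm (-0.50) were lower. The Bnip3 promoter is shown because it holds the sequence CACGTG (in capitals), a palindrome read by basic helix-loop-helix factors such as Myc and overlapping the core that hypoxia-inducible factor reads, in the 250 bases before its RefSeq start (GRCm38.p6, chr7:138909507-138909756, minus strand).
Bnip3: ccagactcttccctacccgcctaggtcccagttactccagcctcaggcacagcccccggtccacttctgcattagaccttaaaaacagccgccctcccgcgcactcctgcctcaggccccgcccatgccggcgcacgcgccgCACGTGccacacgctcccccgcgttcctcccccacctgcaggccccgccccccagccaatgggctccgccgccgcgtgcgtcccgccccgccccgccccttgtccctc
The RefSeq table had a promoter for 26 used genes of this list, and CACGTG was found in 5 of them, Bnip3, Pfkfb3, Ldha, Hif1a and Pfkm (19.2%), against 10.3% of 8057 used genes. Pfkm, at -0.50, is among these holders.

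**Figure D3:**
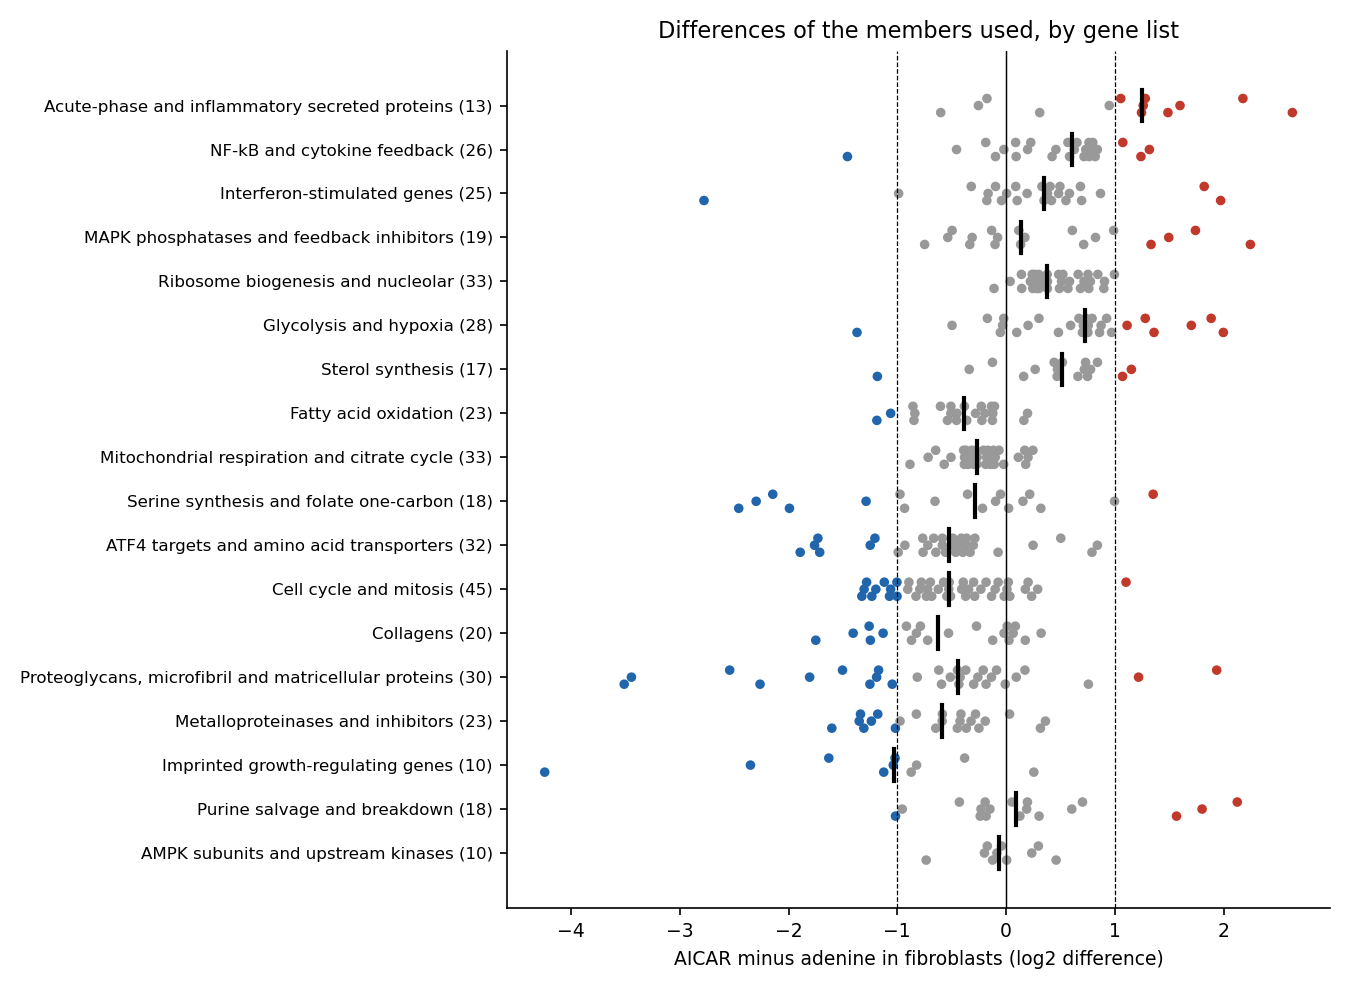
Differences (log2, AICAR minus adenine in fibroblasts, x axis) of the used members of 18 gene lists, 1 point a gene, with the number used in parentheses and a black bar at the list's median; red and blue points lie past the dashed 2-fold lines. Acute-phase genes (median 1.25) and glycolysis genes (0.72) lie to the right, imprinted genes (-1.03) and collagens (-0.62) to the left, and AMPK subunits (-0.06) around 0.

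Sterol synthesis was moderately higher and most other lipid enzymes differed little. Of 17 used sterol enzymes, of 20 listed, 14 were above 0 with a median of 0.52. Lanosterol demethylase (Cyp51) had 6.67, 6.89 and 8.05 in control, adenine and AICAR fibroblasts (1.15), Hsd17b7 had 7.53, 7.86 and 8.94 (1.07) and the mevalonate decarboxylase Mvd had 7.46, 7.65 and 8.49 (0.84). In these 3 the adenine culture lay between control and AICAR. Tm7sf2, a sterol reductase, was at -1.18 with 6.58, 7.10 and 5.91. Among regulators and transporters the sterol carrier Stard4 (1.33) was at least 2-fold higher and the cholesterol exporter Abca1 was at 0.97. Fatty acid and triglyceride synthesis genes had a median of 0.10, with the desaturase Scd1 at 0.94 and the elongase Elovl6 (9.47, 9.32 and 7.76) at -1.56 as the only 2-fold difference among 24. The Hsd17b7 promoter is shown because CCAAT boxes, bound by NF-Y, which cooperates with the sterol regulator SREBP, are a shared feature of this pathway. The 213 bases shown, all upstream of the annotated gene (GRCm38.p6, chr1:169969243-169969455, minus strand), hold CCAAT in 2 places, read on the other strand as ATTGG, and CACGTG once (all in capitals).
Hsd17b7: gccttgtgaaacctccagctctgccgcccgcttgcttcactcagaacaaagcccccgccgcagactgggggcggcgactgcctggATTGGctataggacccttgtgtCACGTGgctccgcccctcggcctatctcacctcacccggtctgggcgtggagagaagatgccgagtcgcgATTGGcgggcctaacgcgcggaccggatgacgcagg
All 14 used sterol enzymes with a promoter in the table held CCAAT on either strand, against 40.6% of 8057 used genes. Tm7sf2 was among the 14, and the sterol regulatory element TCACNCCAC, where N is any base, was found in 1 of them, Hmgcs1 (0.44).

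Fatty acid oxidation and respiratory genes were lower with AICAR, mostly by less than 2-fold. Over all genes used 51.1% were below 0 and 3.89% at least 2-fold lower. Of 23 used oxidation genes 21 were below 0 with a median of -0.38, and 2 were at least 2-fold lower. These were the medium-chain acyl-CoA dehydrogenase Acadm (8.70, 8.91 and 7.72 in control, adenine and AICAR fibroblasts, -1.19) and Cpt1a, which admits fatty acids to mitochondria (8.77, 8.40 and 7.34, -1.06). Adenine was above control for Acadm and below it for Cpt1a. Respiration and citrate cycle genes were below 0 in 28 of 33 cases with a median of -0.27 and 0 members at a 2-fold difference. Sdhb of complex II (-0.88) and Cox6a1 of complex IV (-0.72) were lowest.

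Several enzymes that make serine or run the mitochondrial folate cycle were clearly lower with AICAR, while others of the folate cycle were higher. Serine synthesis starts with Phgdh, Psat1 and Psph, and all of these were lower: Phgdh had 8.79, 8.60 and 7.31 in control, adenine and AICAR fibroblasts (-1.29), Psat1 had 9.74, 9.59 and 7.29 (-2.30) and Psph had 7.93, 7.60 and 6.67 (-0.93). The mitochondrial folate enzymes followed, with Shmt2 at -0.98, Mthfd2 at -1.99 (9.16, 9.08 and 7.08) and Aldh1l2 at -2.46 (9.50, 8.96 and 6.51). In these 6 genes adenine stood under the control, by less than AICAR did. Mthfd1l, the mitochondrial formate-producing synthetase, was the opposite, with 7.06, 6.59 and 7.94 (1.35), and Mthfd2l was at 1.00. The cytosolic enzymes Shmt1 (-0.35) and Mthfd1 (-0.10) differed little. Cystathionine gamma-lyase (Cth), which makes cysteine, was at -2.14. Of 18 used genes of this list 5 were at least 2-fold lower and 1 higher, beside 3.89% and 1.59% of all genes used. The median was -0.29, or -0.07 over the 22 on the array.

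Several of these enzymes are targets of ATF4, the transcription factor of the amino acid response, and the ATF4 list was lower too. Of 32 used members 28 were below 0, 6 were at least 2-fold lower, 0 higher, and the median was -0.53. Over all genes used 51.1% were below 0 and 3.89% at least 2-fold lower. The amino acid transporter Slc7a5 had 9.98, 9.52 and 7.63 in control, adenine and AICAR fibroblasts (-1.89), the glycine transporter Slc6a9 was at -1.76 and the glutathione-degrading enzyme Chac1 had 8.26, 7.89 and 6.16 (-1.73). Sesn2 (-1.71), the pseudokinase Trib3 (-1.25) and the factor Atf5 (-1.21) made up the 6, and asparagine synthetase (Asns) was just short of 2-fold with 11.42, 11.21 and 10.21 (-0.99). Atf4 itself differed less at the transcript level (9.35, 9.37 and 9.0, -0.37). Slc3a2, the partner chain of Slc7a5, was higher (0.79), as was Cebpb (0.84), so the members did not all share a direction. Transfer RNA synthetases of the list were all below 0, from Wars at -0.72 to Sars at -0.30. Chaperones of the endoplasmic reticulum, another arm of the stress response, had a median of -0.01. The promoters of Chac1 and Asns are shown because each holds the composite element TGATGNAA, read by ATF4 with a C/EBP partner, in the 250 bases before the start (in capitals, given as TTGCATCA where it lies on the other strand). They are at chr2:119350992-119351241, plus strand, and chr6:7693210-7693459, minus strand, of GRCm38.p6.
Chac1: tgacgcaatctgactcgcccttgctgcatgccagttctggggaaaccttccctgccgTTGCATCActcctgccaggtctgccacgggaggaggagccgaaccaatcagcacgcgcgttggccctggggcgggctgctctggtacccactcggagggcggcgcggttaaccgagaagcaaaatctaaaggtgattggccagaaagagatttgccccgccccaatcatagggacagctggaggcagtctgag
Asns: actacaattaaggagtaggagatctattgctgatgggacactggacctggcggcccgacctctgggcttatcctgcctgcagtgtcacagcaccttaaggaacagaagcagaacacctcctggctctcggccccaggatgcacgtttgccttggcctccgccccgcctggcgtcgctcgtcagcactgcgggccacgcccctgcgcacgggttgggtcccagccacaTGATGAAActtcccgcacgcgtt
The element lies 193 bases before the start in Chac1 and 23 bases before it in Asns. It was found in 7 of 25 used members with a promoter in the table (28%), against 2.16% of 8057 used genes. None of the 15 serine and folate genes with a promoter in the table held it in this window.

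**Figure D4:**
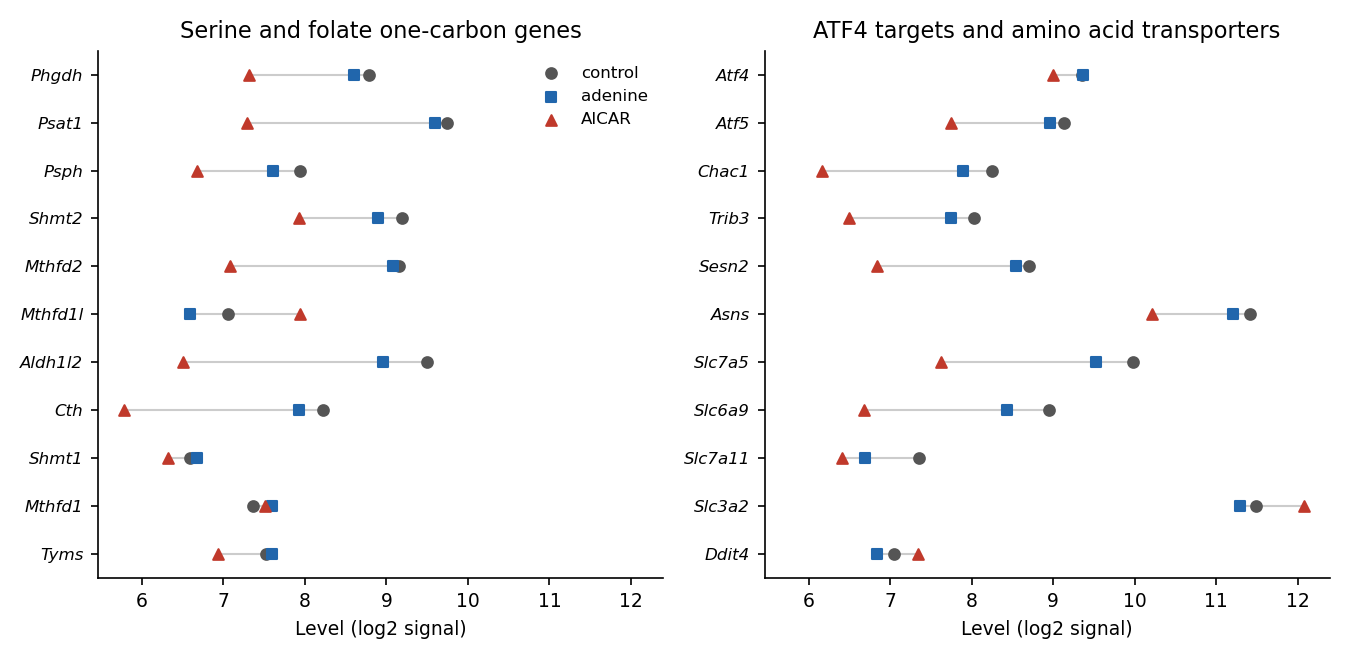
Levels (log2 signal, x axis) in control, adenine and AICAR fibroblasts, 1 array each, for 11 serine and folate one-carbon genes (left) and 11 ATF4 targets and amino acid transporters (right). AICAR triangles lie left of the other symbols for Psat1 (7.29 against 9.59 with adenine) and Slc7a5 (7.63 against 9.52) and right of them for Mthfd1l and Slc3a2.

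Cell cycle genes were mostly lower with AICAR. Of 45 used cell cycle genes, of 49 listed, 37 were below 0, 10 at least 2-fold lower and 1 higher, with a median of -0.53. Over all genes used 51.1% were below 0, 3.89% at least 2-fold lower and 1.59% higher. Cyclin B2 (Ccnb2) had 8.10, 7.88 and 6.56 in control, adenine and AICAR fibroblasts (-1.33), the spindle motor Kif11 had 6.75, 6.79 and 5.48 (-1.30), cyclin A2 (Ccna2) was at -1.28 and the proliferation marker Mki67 at -1.23. Adenine lay close to control in all of these. Cyclin D1 (Ccnd1) was at -1.12, and the CDK4 and CDK6 inhibitor Cdkn2c, though an inhibitor, was also lower (-1.46). The replication licensing factor Cdt1 (6.88 with adenine and 7.98 with AICAR, 1.10) was the member that was higher, and the subunits of the replicative helicase ran from -0.39 for Mcm7 and -0.37 for Mcm5 to 0.20 for Mcm4. The Ccnb2 promoter (GRCm38.p6, chr9:70421555-70421804, minus strand) is shown for its CCAAT boxes, which occur 3 times, and for the letters TTTGAA (all in capitals). TTTGAA is the core of the cell cycle homology region bound by the DREAM complex. Here it lies 167 bases before the start, farther out than the CCAAT boxes at 87, 54 and 21 bases. Whether this match acts as that element was not tested.
Ccnb2: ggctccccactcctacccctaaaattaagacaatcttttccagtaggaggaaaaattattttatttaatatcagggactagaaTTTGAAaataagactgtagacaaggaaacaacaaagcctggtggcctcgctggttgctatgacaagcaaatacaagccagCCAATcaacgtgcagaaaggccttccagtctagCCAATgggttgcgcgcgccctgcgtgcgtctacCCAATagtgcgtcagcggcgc
CCAAT was found in 28 of 37 cell cycle genes with a promoter in the table (75.7%) and TTTGAA in 9 (24.3%), against 40.6% and 12.2% of 8057 used genes. CCAAT was thus common both in this list, which was mostly lower, and in the sterol list, which was mostly higher.

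Matrix genes were lower with AICAR and, for several, higher with adenine than in untreated cells. Of 24 listed collagens 20 were used, with 14 below 0, 5 at least 2-fold lower, 0 higher and a median of -0.62, or -0.24 over all 24. For this and the other matrix lists, the shares over all genes used were 51.1% below 0 and 3.89% at least 2-fold lower. The fibrillar collagen genes Col11a1 (8.14, 8.65 and 6.90 in control, adenine and AICAR fibroblasts, -1.75) and Col3a1 (11.67, 11.90 and 10.50, -1.41) were lowest, followed by Col6a2 (-1.26), Col6a3 (-1.25) and Col12a1 (-1.13). For Col12a1 the adenine culture stood apart, with 7.80, 8.98 and 7.85. Basement membrane collagen Col4a1 was at -0.02. Proteoglycan, microfibril and matricellular genes had 25 of 30 used members below 0, 10 at least 2-fold lower and a median of -0.44. Besides Dpt, Mfap5 and Mfap4 these included the leucine-rich proteins Prelp (10.58, 10.69 and 8.42, -2.26) and Aspn (-1.81) and the large proteoglycan Vcan (-1.5). Prg4, the lubricin gene, and Ccn1 (7.95 with adenine and 9.17 with AICAR, 1.22), a YAP target, were higher in the same list. Metalloproteinases and their inhibitors were mostly below 0 (20 of 23, including 7 that were 2-fold lower or more), with the inhibitor Timp3 (8.92, 8.71 and 7.11) at -1.60 and the gelatinase Mmp9 at -1.24. Contractile and YAP target genes had a median of -0.07, with calponin Cnn2 at -1.30 and smooth muscle actin Acta2 at -1.01. Lumican (Lum) and the stromelysin Mmp3, left out by the filter and named after their values were seen, stood at -1.94 and -2.28.

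Imprinted growth regulators were lower in 9 of the 10 that passed the filter, of 24 on the array, beside 51.1% of all genes used. Besides Mest these were the preadipocyte factor Dlk1 (11.50, 11.40 and 9.05 in control, adenine and AICAR fibroblasts, -2.35), the retrotransposon-derived Peg10 (8.95, 9.57 and 7.94, -1.63), the amino acid transporter Slc38a4 (-1.12), necdin (Ndn, -1.04) and the growth factor Igf2 (6.85, 6.95 and 5.92, -1.02), each at least 2-fold lower. The 10 had a median of -1.03, while the 24 had -0.11, with the other 14 under the filter level. Stromal and preadipocyte markers had a median of -0.57 over 18 used genes and 0.01 over the 30 on the array. Apod, Dlk1 and the transcription factors Osr2 (-1.82) and Osr1 (-1.01) were at least 2-fold lower, and the interleukin receptor chain Il13ra1 was higher (1.76).

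Most adipocyte markers were dim in these undifferentiated cells. Of the 10, which passed the filter with the adipocyte arrays counted, 6 were under 5.87 with both compounds, so no direction is read from the list. Of the others, Fabp4 was at least 2-fold higher, lipoprotein lipase (Lpl) had 11.64, 12.04 and 11.88 in control, adenine and AICAR fibroblasts, the lipid droplet gene Plin4 was at 0.15 and the glycerol phosphate enzyme Gpd1 at 0.15. Among adipogenic transcription factors the median was 0.19, with Klf9 (8.40, 8.49 and 10.27 in control, adenine and AICAR fibroblasts) at 1.78, Cebpd at 1.32 and Pparg (8.09, 8.19 and 9.04) at 0.85. Klf9 and Cebpd are also responsive to glucocorticoids, a list with a median of 0.55 in which the kinase Sgk1 was at -1.52 and the sulfotransferase Sult1a1 at -1.73. Of 17 clock genes 15 were above 0, beside 4871 of all 9969 genes used. Their median was 0.52, led by the repressors Bhlhe40 (1.37) and Nr1d1 (1.21). Lysosomal genes were below 0 in 21 of 28 cases, beside 51.1% of all genes used, with a median of -0.29. Beta-glucuronidase (Gusb, 8.67, 9.16 and 7.18) was at -1.98 and Hexa at -1.49, against the trafficking regulator Lyst at 1.68. Targets of the oxidative stress factor NRF2 were centred at -0.03, with Nqo1 at -1.37, Gsta4 at -1.44 and Gclc, which limits glutathione synthesis, at 1.11. Inhibitors of the cell cycle and p53 targets had a median of -0.16. Wnt and TGF-beta family genes had one of 0.04, with the activin subunit Inhba (1.76) and the BMP-responsive Id3 (1.28) and Id4 (1.10) higher.

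Shares of 11 promoter motifs were compared between the genes that differed and all genes used. The window was the 250 bases before each RefSeq start, on both strands, counting a gene if any of its listed starts held the letters, and 124 higher, 287 lower and 8057 used genes had such a promoter. CCAAT was found in 40.3% of the higher and 38.7% of the lower genes, against 40.6%. The AP-1 letters TGANTCA were found in 8.87% of the higher (11 of 124) and 5.23% of the lower genes, against 4.96%, and CACGTG in 14.5% and 10.1% against 10.3%. TGATGNAA was found in 3.23% and 3.14% against 2.16%, and the interferon-stimulated response element in 3.23% and 3.48% against 3.02%. TTTGAA was found in 12.9% and 16.4% against 12.2%, and the antioxidant response letters TGACNNNGC in 16.9% and 13.6% against 14%. The rarer motifs were the CRE TGACGTCA (2.42% and 2.09% against 3.14%), E2F TTTCCCGC (1.61% and 0.697% against 2.13%), the NF-kB element (0.806% and 0.697% against 0.422%) and TCACNCCAC (0% and 0.348% against 1.17%). These shares are a description and were not tested. Rsad2, 1 of the higher genes, is shown as an example of the interferon element, which lies 120 bases before its start as TTTCATTTTC on the other strand (capitals, GRCm38.p6, chr12:26456453-26456702, minus strand).
Rsad2: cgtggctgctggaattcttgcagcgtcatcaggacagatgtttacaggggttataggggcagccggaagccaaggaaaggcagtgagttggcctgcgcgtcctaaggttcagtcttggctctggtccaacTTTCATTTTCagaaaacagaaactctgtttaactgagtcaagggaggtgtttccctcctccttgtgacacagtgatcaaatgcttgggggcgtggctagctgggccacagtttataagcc
The element was found in 8 of 18 interferon-stimulated genes with a promoter (44.4%). Ifit1 (0.50) and Bst2 (-0.99) were among the 8, so genes with the element lay on either side of 0.

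The same contrast in adipocytes shares no array with the one in fibroblasts, and it gave a different set of genes. In adipocytes 220 genes passed 2-fold toward higher signal with AICAR than with adenine (2.21% of those used) and 121 toward lower (1.21%), 3.42% in all. Of the genes higher in fibroblasts, 13 were higher in adipocytes as well, which is 8.18% of the fibroblast set and 5.91% of the adipocyte set. Over all genes used these shares were 2.21% and 1.59%. Of those lower in fibroblasts, 5 were lower in adipocytes, 1.29% and 4.13% of the sets, near the 1.21% and 3.89% over all genes used. Opposite differences were more frequent only among the genes lower in fibroblasts, of which 56 were higher in adipocytes (14.4% and 25.5% of the sets). Among the genes higher in fibroblasts they were less frequent, with 6 lower in adipocytes (3.77% and 4.96%) against the 13 that were higher. Across the 9969 genes, which are not independent replicates, Pearson's r between the differences was -0.11 and Spearman's coefficient -0.04. The states also differ in serum, in induction drugs and in the 3 days without compound before adipocytes were collected, and the part of each was not tested.

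Genes higher with AICAR in both states included a chemokine, a pentraxin, a prostaglandin synthase and interferon-induced genes. Ccl5 stood at 2.14 in fibroblasts and 1.78 in adipocytes (6.62 with adenine and 8.40 with AICAR), Ifit2 at 1.82 and 1.67, the bile acid transporter relative Slc10a6 at 1.75 and 1.69, Ptx3 at 1.26 and 2.47, and Ptgs2 at 1.25 and 1.24. Id3 (1.28 and 1.14), Rsad2 (1.97 and 1.13), Slfn2 (1.55 and 1.12), Tnfrsf23 (1.08 and 1.10) and Osmr (1.24 and 1.07) completed the 10 largest by the smaller of the differences, all of them past 2-fold in both states. Only 5 genes were at least 2-fold lower in both states, 1.29% of the fibroblast set and near the 1.21% over all genes used. They were Sult1a1 (-1.73 and -1.32), the insulin-regulated phosphodiesterase Pde3b (-1.11 and -1.43), Gpcpd1 (-1.04 and -1.22), Sort1 (-2.84 and -1.01) and Mccc2 (-1.07 and -1.01). In adipocytes adenine was above the untreated level for each of these. AICAR was below that level except for Sort1, which had 7.88, 9.29 and 8.28 in control, adenine and AICAR adipocytes. Respiration genes, below 0 in 28 of 33 cases in fibroblasts, were below 0 in 33 of 33 in adipocytes, against 51.1% of all genes used in fibroblasts and 54.8% in adipocytes. Against untreated adipocytes Sdhb was at 0.65 with adenine and 0.20 with AICAR, Cox6a1 at 0.57 and 0.37, and Uqcrc2 at 0.76 and -0.03. For these members the adipocyte difference thus came mainly with adenine above the control, not with AICAR below it.

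Several leading fibroblast genes ran the other way in adipocytes. Pfkfb3 had a difference of 2.0 in fibroblasts and -1.47 in adipocytes (7.99 with adenine and 6.53 with AICAR), Dusp4 2.25 and -1.36, Cyp51 1.15 and -1.22, annexin Anxa8 1.13 and -2.07 and Hk2 1.70 and -1.07. In the other direction stood Arhgap20 (-3.55 and 2.32), Apod (-3.18 and 2.16), the growth factor pleiotrophin (Ptn, -2.29 and 1.98), Osr2 (-1.82 and 1.92) and the calcium-binding S100a4 (-2.60 and 1.72). For Apod the adipocyte levels were 9.18 in control, 7.99 in adenine and 10.15 in AICAR, so that adenine was below and AICAR above the untreated adipocytes. Among the genes listed so far in this paragraph, adenine lay farther from untreated adipocytes than AICAR did, except for Cyp51 (0.54 and -0.68). Of genes with opposite differences named elsewhere, AICAR lay farther for Acta2 (-1.21 with adenine and 1.95 with AICAR), Aldh1l2 (-0.02 and 1.17) and Cd74 (-0.31 and 0.98). Against untreated adipocytes Ptn was at -1.89 with adenine and 0.09 with AICAR, and Pfkfb3 at 1.22 and -0.24. Over all genes used, the robust SD against untreated adipocytes was 0.335 with adenine and 0.196 with AICAR. Of the 388 genes lower in fibroblasts 246 (63.4%) were above 0 in adipocytes, against 45.2% of all genes used. In 243 (62.6%) adenine adipocytes were below untreated ones, against 47.5%, and these counts share the adenine array. Mest, the lowest gene in fibroblasts, was at -0.22 in adipocytes, Hp at -0.88 and Myc at 0.12.

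**Figure D5:**
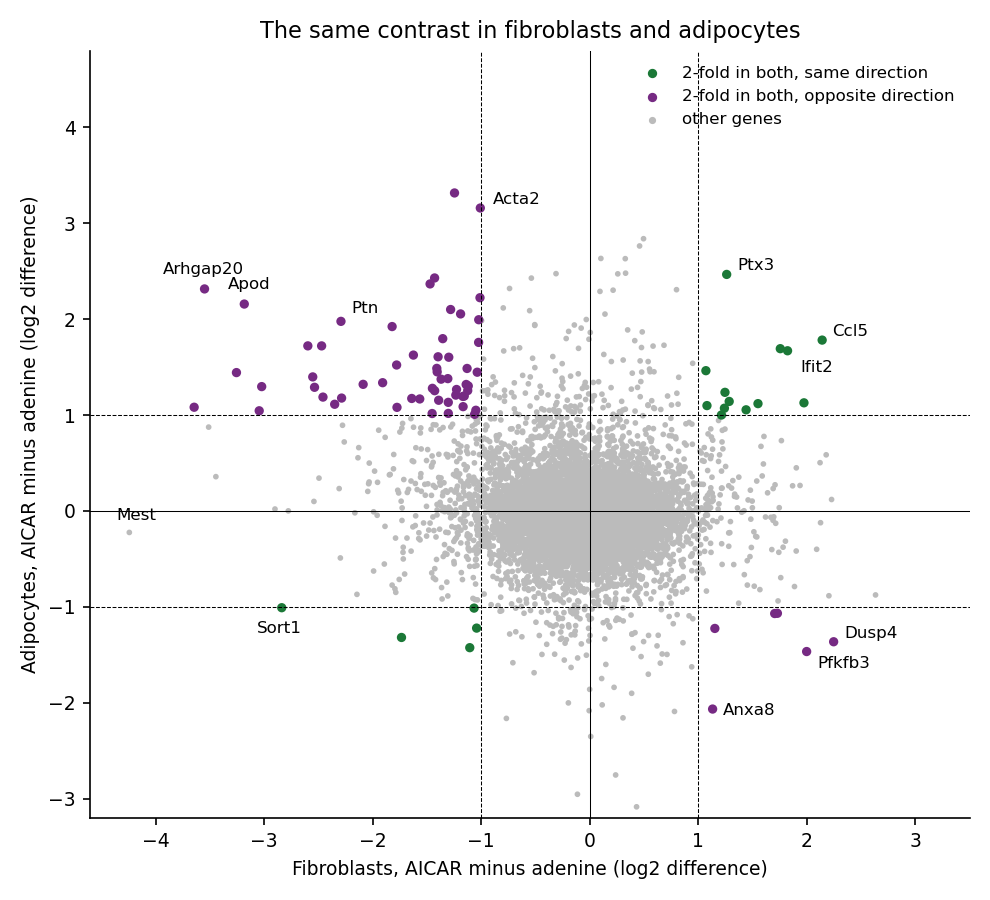
Difference (log2, AICAR minus adenine) of each of the 9969 genes used in fibroblasts (x axis) and adipocytes (y axis), from 2 arrays each; dashed lines mark 2-fold differences, green points are past 2-fold the same way in both states and purple points past it in opposite ways. The upper left corner, lower in fibroblasts and higher in adipocytes, holds 56 genes, the lower left 5, the upper right 13 and the lower right 6.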

How the data were processed

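Total RNA from each culture was labelled with a whole-transcript kit and read on 1 Affymetrix array, as the labels' protocols describe. Values for 35556 probe sets are log2 expression as the authors deposited them. Per the submitters' processing notes, they came from Transcriptome Analysis Console (version 1.0.0.234) with genome build mm10. The background correction and normalization were not given in the sources used here, so no further scaling was applied. In the platform annotation 21789 probe sets carried a single symbol, 1621 carried several and 12146 carried none. The brightest probe set stood for a gene with several, and genes at or above the median of gene means were kept. Of the 9969 genes used, 9955 matched the RefSeq table (GRCm38.p6) by Entrez ID. AICAR and adenine arrays were subtracted on the log2 scale, and differences of at least 2-fold were counted, with Python 3.11.15. No test was made between single arrays.

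The genes named were the 15 largest differences each way, Hp, Dusp4, Myc, Mest, Dpt, Aprt, Adk and Hprt, up to 3 of the highest and lowest of each list, and, by the smaller size, the largest differences shared by or opposite in both states. Predicted, clone-named, small RNA and receptor-family genes were passed over. A few other list members are given to show the range of a list. Members and lists were chosen with earlier results of these data known. Promoters came from RefSeq, with the first 250 bases used. Alternatives were quantile normalization, median centring, other filters, the mean of probe sets and a 1.5-fold threshold.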

Additional observations from a re-analysis of the deposited data

Results flagged for a closer look

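A set of named genes and lists differed in direction between fibroblasts and adipocytes. With 1 array per condition, the difference between the states was not tested. Among genes higher with AICAR than adenine in fibroblasts and lower in adipocytes, Dusp4 had a difference of 2.25 in fibroblasts, Pfkfb3 2.0, Hk2 1.70, Cyp51 1.15 and Anxa8 1.13.

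Among genes lower in fibroblasts and higher in adipocytes, the fibroblast differences were -3.64 for Sema3c, -3.55 for Arhgap20, -3.25 for Agtr2, -3.18 for Apod, -3.05 for Fhl2 and -3.02 for Sod3. They were -2.60 for S100a4, -2.55 for Cd248, -2.54 for Cd74, -2.46 for Aldh1l2, -2.35 for Dlk1 and -2.29 for Ptn. Smaller ones were -1.82 for Osr2, -1.41 for Col3a1, -1.30 for Cnn2, -1.06 for Cpt1a, -1.02 for Lyz2 and -1.01 for Acta2. Acta2, the smooth muscle actin, had the largest adipocyte difference of these genes, 3.16 (7.24 in untreated adipocytes, 6.03 with adenine and 9.19 with AICAR).

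Of the gene lists, fibroblast markers had a median of -0.67 in fibroblasts and 1.22 in adipocytes, where all 12 used were above 0. Stromal and preadipocyte markers had -0.57 and 0.97, metalloproteinases and inhibitors -0.59 and 0.51, and sterol synthesis 0.52 and -0.71.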

How the results depend on the processing

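No paired analysis was possible because each condition has 1 array. Counts of 2-fold differences were within 1.5 times of the reported ones under quantile normalization, median centring, no filter and the mean of probe sets. A filter at the 75th percentile left 65 higher and 215 lower genes among fewer genes, and a 1.5-fold threshold gave 690 and 1191. Under quantile normalization, median centring and the mean of probe sets, each of the 41 list medians moved by less than 0.156, the robust SD of adenine minus control. Within that, some medians near 0 turned positive: endoplasmic reticulum chaperones (0.092 with quantile normalization, 0.024 with centring), NRF2 targets (0.022 and 0.0051) and contractile genes (0.0088 with quantile normalization). Without the filter the medians of purinergic genes (0.04), stromal markers (0.0092), endoplasmic reticulum chaperones (0.031) and NRF2 targets (0.0054) turned positive. All of these were below the unfiltered median over all genes, 0.083. The medians of acute-phase genes (0.22), serine and folate genes (-0.074), collagens (-0.24), metalloproteinases (-0.42) and imprinted genes (-0.11) moved, since dim members entered. At the 75th percentile, medians were 0.005 for interferon-stimulated genes, 0.0092 for antigen presentation, 0.71 for MAP kinase feedback, -0.10 for fatty acid synthesis, -1.13 for serine and folate genes, -0.87 for collagens, -0.42 for metalloproteinases and 0.72 for the clock. No named gene with a 2-fold difference turned in sign under these settings, while a few within 0.06 of 0, such as Adss (-0.024, and 0.0076 with centring), did. Dim signal near background limits the folds of genes with a level under 5.87.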
